A study of Rattus norvegicus with 6 samples.

Results

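The transcriptome described here is that of dorsal root ganglia from sham-operated rats, taken from the 3 libraries whose titles begin with "sham" among the 6 libraries of the series. The series examined ganglia of Rattus norvegicus with sham surgery or a partial sciatic nerve ligation, and the ligated group is not analysed here. Each sham library came from ganglia collected on day 7 after the sham operation, flash frozen on dry ice and extracted with Trizol, with 1 ug of total RNA put into a BGISEQ-500 library kit. The labels give no genotype, strain, age, spinal level or number of pooled animals, and do not tell whether a library is 1 animal or several. The spread between libraries may therefore be partly technical.

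Dorsal root ganglia lie beside the spinal cord and hold the cell bodies of the primary sensory neurons, which carry touch, body position, temperature, itch and pain signals. Satellite glia wrap each cell body, Schwann cells wrap the axons with or without myelin, and a capsule of connective tissue, blood vessels and resident macrophages surround them. The ganglion holds axons of the peripheral nerve and of the dorsal root, and the root meets the spinal cord, where the myelin is made by oligodendrocytes in place of Schwann cells.

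The 3 libraries held 4412391, 4405639 and 4310643 estimated counts in sham replicates 1, 2 and 3, and every triple of values below is given in that order. They listed 13160, 13135 and 13343 genes. Of 13955 genes seen in any of them, 12505 were seen in every library. Levels are given in FPKM as deposited, a unit of sequenced fragments scaled to transcript length and library size, so genes can be compared per length. A gene with a value in some libraries and none in another was taken as 0 in the latter, and a mean over the 3 libraries is given ± SD (n = 3). Genes of 1 to 3 FPKM held a median of 18.3 counts per library, so single values near 1 FPKM carry a large counting error.

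Sham replicate 3 stood apart from the other libraries and carried transcripts of central glia, spinal neurons and skeletal muscle. A list of 14 oligodendrocyte genes summed to 56.2, 50.6 and 759.8 FPKM, and a list of skeletal muscle genes to 41.8, 25.7 and 633 FPKM. Results that rest on that library are given below with and without it. As background, 41.2% of the 11189 genes with a mean of at least 1 FPKM were higher in sham replicate 3 than in both other libraries, 34.9% were lower than in both, and 3.75% were at least 2-fold above both. The median gene was not displaced, with a ratio of sham replicate 3 to the mean of the others of 1.01.

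RNA of sham ganglia was spread over many genes. A mean of at least 1 FPKM was reached by 11189 genes, of at least 10 FPKM by 6491, of at least 100 FPKM by 997 and of at least 1000 FPKM by 51. The 10 most abundant genes held 9.03%, 8.41% and 8.74% of the summed FPKM (mean 8.73% ± 0.309), the top 100 held 27.7% ± 0.569 and the top 1000 held 63.2% ± 0.558. The most abundant genes were also short, with a median length of 1452 bases in the top 100 against 2099 in all 13955 genes listed. The ranking is by FPKM, which weights short genes more, so part of this difference is built in.

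Among the most abundant transcripts was Nefl (gene ID 83613), the light neurofilament chain that sets axon calibre with its partners. It stood at 6511, 6552 and 5492 FPKM (mean 6185 ± 601). The haemoglobin alpha chain Hba-a1 (gene ID 25632) followed at 5256, 2941 and 6892 FPKM (mean 5029 ± 1985). Apoe (gene ID 25728), the lipid carrier made by satellite glia, stood at 4935, 5328 and 4621 FPKM (mean 4961 ± 354). The ranges of these 3 genes over the libraries overlapped between neighbours in rank, so their order is not separated by these 3 libraries.

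The rest of the 30 most abundant genes mixed neuron, glia, blood and housekeeping transcripts. Neurofilaments and tubulins made up a large group, with Nefm at 4459.7 ± 579 FPKM, Tuba1a at 4020.0 ± 273, Tubb3, the neuronal beta-tubulin, at 3272 ± 301, Nefh at 2882 ± 341, Tuba1b at 2509 ± 122 and Prph, the intermediate filament peripherin, at 1872 ± 253 FPKM. Further genes abundant in sensory neurons were Sncg, gamma-synuclein, at 2801 ± 388, Uchl1, a deubiquitinating enzyme, at 2659 ± 232 and the surface glycoprotein Thy1 at 1460.3 ± 80.6 FPKM. Most of these are known from axons or cell bodies of neurons, and most of the others from glia, blood or every cell. The myelin genes Pmp22 and Mbp stood at 2765 ± 578 and 2770.5 ± 1925 FPKM. Those of every cell included Fth1, the ferritin heavy chain, at 3659 ± 287, the chaperone Hspa8 at 2533 ± 108, ubiquitin Ubb at 2397 ± 19.9, cyclophilin Ppia at 2348 ± 54.5, the glycolytic enzymes Gapdh at 2309 ± 175 and Aldoa at 1454 ± 30.6, and the translation factor Eef1a1 at 1414 ± 74.98 FPKM. The other members of the 30 were the haemoglobins Hbb and Hba-a2, the actins Actg1 and Actb, the protease inhibitor Cst3, the actin-binding peptide Tmsb4x, Gnas and Zwint, between 1351 and 3355 FPKM.

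**Figure D1:**
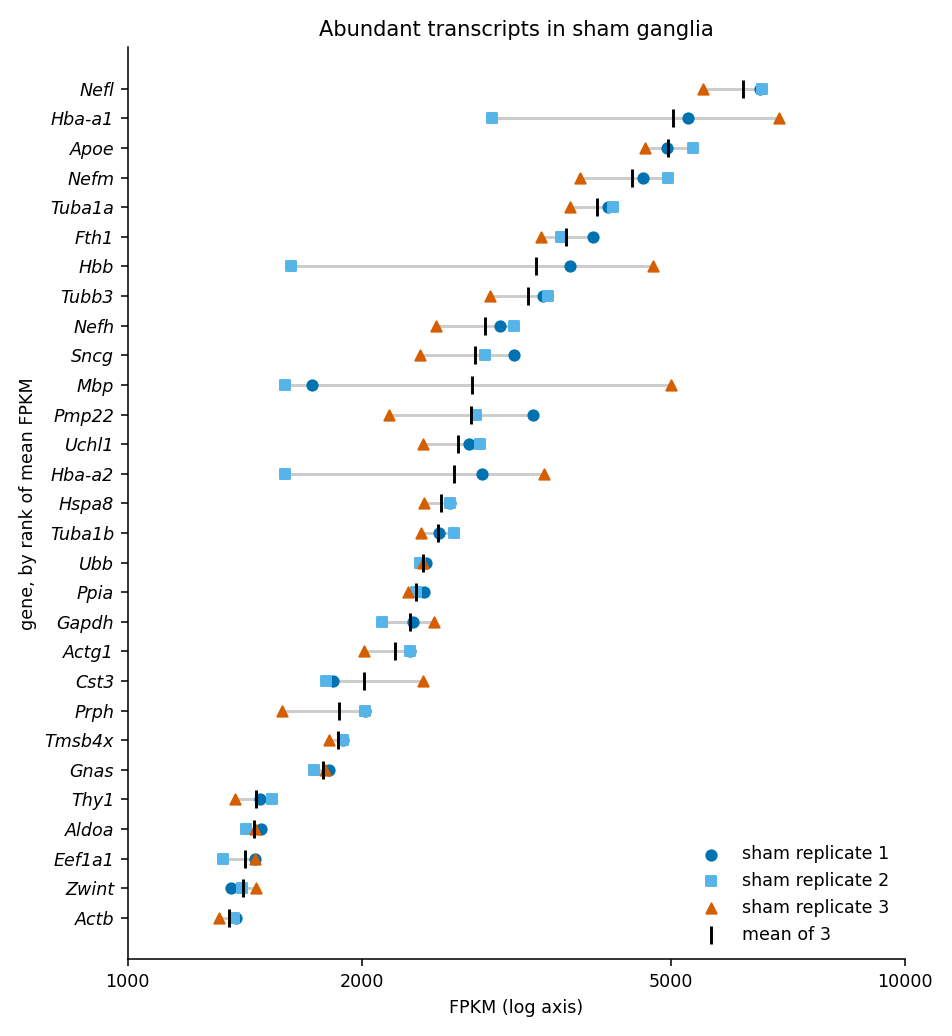
Levels of 29 of the 30 genes with the highest mean FPKM, 1 row per gene. The x axis is FPKM on a log axis, the points are the 3 sham libraries and the black bar is their mean; Mbp and the haemoglobins Hba-a1, Hbb and Hba-a2 spread most, while Ubb, Ppia, Gnas and Aldoa lie close together.

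Of the 29 pairs of neighbours in that order, 28 had overlapping ranges. The exception was Gnas, the stimulatory G protein alpha subunit, at 1817, 1737 and 1795 FPKM, which lay above Thy1 at 1477, 1531 and 1372 FPKM in every library. A total of 27 of the 30 genes were in the top 30 of each library. Sham replicate 3 was lowest for 19 of the 30 and highest for 8, where the background was 34.9% lowest and 41.2% highest. The 8 were Hba-a1, Hbb, Hba-a2, Mbp, Gapdh, Cst3, Eef1a1 and Zwint.

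Promoter sequences of some abundant genes are shown because they differ in the motif TATAAA, a form of the TATA box, an element that tells core promoters apart. A RefSeq table of the rat assembly GRCr8 held a promoter for 22 of the 30 genes and for 11196 of the 13955 genes listed. The 100 bases before the start are printed 5′ to 3′ on the gene's strand, with the motif TATAAA in capitals. These positions belong to the RefSeq table alone, since no source used here gives the build of the deposited files.
Hba-a1, GRCr8 chr10:15842581-15842680, minus strand: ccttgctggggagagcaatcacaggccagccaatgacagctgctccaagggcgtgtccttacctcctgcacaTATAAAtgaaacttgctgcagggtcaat
Hba-a2, GRCr8 chr10:15829139-15829238, minus strand: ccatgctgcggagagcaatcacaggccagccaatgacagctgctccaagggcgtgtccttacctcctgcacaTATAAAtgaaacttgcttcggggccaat
Prph, GRCr8 chr7:132097189-132097288, plus strand: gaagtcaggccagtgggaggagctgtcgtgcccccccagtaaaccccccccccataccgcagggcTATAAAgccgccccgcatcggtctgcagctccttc
Ppia, GRCr8 chr14:85493116-85493215, plus strand: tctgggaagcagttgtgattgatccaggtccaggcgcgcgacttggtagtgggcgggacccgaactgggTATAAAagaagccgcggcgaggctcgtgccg
Gapdh, GRCr8 chr4:159652468-159652567, minus strand: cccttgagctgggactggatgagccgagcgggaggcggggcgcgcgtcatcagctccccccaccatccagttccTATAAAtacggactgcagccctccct
Tubb3, GRCr8 chr19:68365587-68365686, plus strand: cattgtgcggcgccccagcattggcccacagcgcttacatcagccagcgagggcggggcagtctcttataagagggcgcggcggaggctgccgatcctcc
In these windows the motif begins 28 bases before the start in Hba-a1 and Hba-a2, 35 in Prph, 31 in Ppia and 26 in Gapdh. Those were the 5 of the 22 genes with TATAAA on the gene's strand beginning 40 to 20 bases before the start. Tubb3 is shown as a window without that exact string. Its window holds the similar string tataag, and variants of the motif were not searched for. Both haemoglobin alpha windows are nearly the same sequence, identical at 95 of 100 bases. The motif was in that position in 10.8% of the 74 genes with a promoter among the 100 most abundant, in 2.57% of the next genes down to rank 1000, in 0.723% of those further down to rank 5000 and in 1.74% of the rest. Over all 27457 promoters of the table the share was 1.52%. Anywhere in the 250 bases before to 50 after the start, and on either strand, the motif was in 23.0% of the top 100, in 7.97%, 5.60% and 9.12% of the lower ranks in the same order, in 8.09% of all genes listed and in 14.3% of all promoters of the table. A match is a string of letters and not a measured binding site.

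The tissue label was checked against defining genes of a sensory ganglion. Prph, Isl1, Drgx, Calca and Scn10a were all far above 1 FPKM in each library. Pou4f1, Tlx3, Neurod1 and Piezo2, also known from such ganglia, carried no value in any of the 3 tables and are not analysed here. Gene lists for cell types were used to describe what each type contributed. In RNA from a whole ganglion, a low level of a list can mean few cells of that type or little RNA per cell, and these cannot be told apart. Together the 126 genes of the neuron lists held 7.49%, 7.70% and 6.50% of the summed FPKM (mean 7.23% ± 0.639). The 36 genes of the glia lists held 4.26%, 4.01% and 4.49% (4.25% ± 0.238). Vessel and connective tissue lists held 0.347% ± 0.0271 and immune lists 0.0617% ± 0.0135. Red cell genes held 2.27%, 1.26% and 3.06% (2.20% ± 0.903). In CPM, counts scaled to library size and not to length, the blood share was 0.655% and that of glia 3.60%. Such shares depend on how many abundant genes a list holds and are not shares of cells. All listed genes together made up 21.4% of the summed FPKM.

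**Figure D2:**
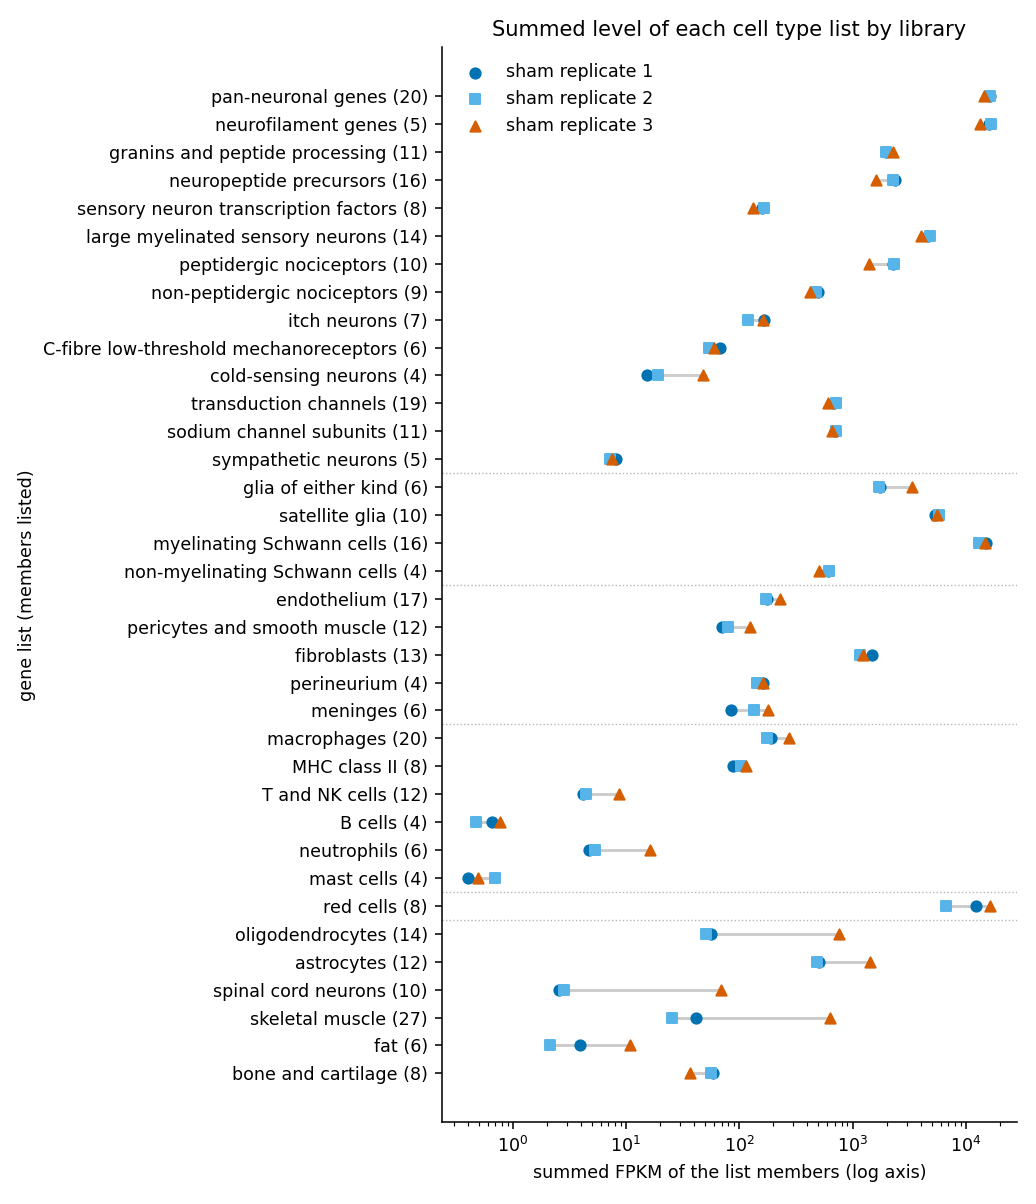
Summed FPKM of each cell type list, on a log axis, with 1 point for each sham library and the number of listed members in brackets. Dotted lines part neurons, glia, vessel and connective tissue, immune cells, blood and tissue from outside the ganglion; sham replicate 3 is far to the right for oligodendrocytes, spinal cord neurons and skeletal muscle.

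Genes shared by all neurons were abundant and close between libraries. The 20 pan-neuronal genes summed to 16223, 16308 and 14422 FPKM (mean 15651 ± 1066). Members below those already named were Stmn2, a tubulin-binding growth protein, at 1371, 1422 and 1169 FPKM, the SNARE protein Snap25 at 955, 960.4 and 1085 and the synaptic vesicle protein Syp at 457, 466 and 483 FPKM. Gap43, a growth cone protein, stood at 175, 209 and 186 FPKM. The dendritic protein Map2 was the lowest of the list, at 2.07, 3.09 and 2.31 FPKM. Sham replicate 3 was below both other libraries for 12 of the 20 and above both for 3, where the background was 34.9% below and 41.2% above.

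The 5 neurofilament genes alone nearly matched that sum. They came to 16178, 16686 and 13441 FPKM (mean 15435 ± 1746), and the value in sham replicate 3 was 0.818 times the mean of the others. Nefm stood at 4605, 4952 and 3822 FPKM, Nefh at 3015, 3136 and 2494 and Prph at 2017, 2019 and 1579 FPKM. These and Nefl were each lowest in sham replicate 3. Ina, alpha-internexin, a filament protein more typical of central neurons, went the other way at 31.3, 27.4 and 53.4 FPKM.

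Peptide signalling genes were led by the calcitonin gene-related peptide precursor. Calca (gene ID 24241) stood at 1463, 1401 and 774 FPKM (mean 1213 ± 381), and its level in sham replicate 3 was 0.541 times the mean of the others. Tac1, the precursor of substance P, stood at 370.0, 445 and 273 FPKM and Calcb, the second CGRP gene, at 149, 136 and 88.8 FPKM. Both were also lowest in sham replicate 3. The pain and itch peptides further down were Sst, somatostatin, at 155, 106 and 146 FPKM, Nmb, neuromedin B, at 109, 105 and 86.8 FPKM and Adcyap1, the precursor of PACAP, at 39.5, 34.9 and 28.6 FPKM.

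Some other peptide genes were higher in sham replicate 3, and these were singled out for that after their values were seen. Neuropeptide Y (Npy) stood at 34.7, 21.4 and 75.8 FPKM, galanin (Gal) at 9.72, 14.8 and 44.6 FPKM and proenkephalin (Penk) at 4.89, 8.84 and 37.8 FPKM. Cholecystokinin (Cck) stood at 1, 0.67 and 23.6 FPKM and Vip, vasoactive intestinal peptide, at 0, 0.45 and 3.65 FPKM. The list of spinal cord neuron genes was also high in sham replicate 3, at 2.56, 2.84 and 68.7 FPKM, and the part of such cells in these values was not tested. Of the 12 peptide genes with a mean of at least 1 FPKM over sham replicates 1 and 2, 4 were above both other libraries in sham replicate 3, a share no larger than the 39.7% of all genes with such a mean. Cck and Vip had lower means without sham replicate 3, of 0.835 and 0.225 FPKM. The 16 peptide genes summed to 2357, 2291 and 1606 FPKM. The lowest, Ucn, urocortin, stood at 0, 0.41 and 0.42 FPKM.

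Granins and the enzymes that process peptides varied less than the peptides. The 11 genes summed to 1989, 1984 and 2257 FPKM (mean 2077 ± 156). Pcsk1n, the inhibitor of prohormone convertase, led at 626, 620.4 and 689 FPKM. Carboxypeptidase E (Cpe) stood at 319, 309.9 and 441 FPKM, Scg5 at 231, 217 and 259, and the granins Scg3, Scg2 and Chga at means of 216, 187 and 166 FPKM. The convertase Pcsk1 was lowest at 16.6, 19.7 and 10.4 FPKM.

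Subtypes of sensory neuron left transcripts at very different levels. Genes of large myelinated neurons, which serve touch and body position, summed to 4675, 4828 and 4037 FPKM, of which Nefh made up 63.8%. Osteopontin (Spp1) stood at 954, 900.3 and 764 FPKM, the calcium buffer parvalbumin (Pvalb) at 361, 425 and 365 FPKM, and the visinin-like calcium sensor Vsnl1 at 156, 170.0 and 222 FPKM. The neurotrophin receptors of these neurons were lower, with Ntrk2, the receptor of BDNF, at 40.8, 45.99 and 53.3 FPKM and Ntrk3, the receptor of neurotrophin-3, at 3.66, 2.5 and 3.58 FPKM. The potassium channel Kcna2 was the lowest listed member, at 1.07, 1.56 and 0.7 FPKM.

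Peptidergic nociceptors, the pain neurons that release CGRP and substance P, were represented by 10 genes. Their sum was 2291, 2337 and 1403 FPKM (mean 2011 ± 526, or 2314 without sham replicate 3). Calca made up 60.3% of that sum. Of the 9 with a mean of at least 1 FPKM, 8 were lowest in sham replicate 3, against 34.9% of all such genes. The exception, the somatostatin receptor Sstr2, at 0.85, 0.96 and 1.75 FPKM, reached that mean only through sham replicate 3. The heat and capsaicin channel Trpv1 stood at 48.3, 52.8 and 35.1 FPKM and Gfra3, the artemin co-receptor, at 40.1, 49.3 and 37.9 FPKM. The mu opioid receptor Oprm1 was at the limit of detection, at 0.16, 0.39 and 0.16 FPKM.

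Non-peptidergic nociceptor genes were lower in sum and closer between libraries, at 493, 477 and 423 FPKM (mean 464 ± 36.9). Ret, the receptor tyrosine kinase of the GDNF family, led at 141, 133 and 119 FPKM. The ATP-gated channel P2rx3 stood at 111, 113 and 98.1 FPKM, and the sodium channels Scn10a and Scn11a, which encode Nav1.8 and Nav1.9, at 78.2, 77.7 and 56.9 FPKM and at 59.6, 57.6 and 48.5 FPKM. Mrgprd, a receptor of nociceptors that supply the skin, stood at 11.3, 12.5 and 14.3 FPKM, and the lysophosphatidic acid receptor Lpar3 was lowest at 2.47, 3.81 and 2.24 FPKM.

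Smaller classes of neuron were near the lower end of what these libraries resolve. In the itch list Sst made up 91.3% of the sum, and natriuretic peptide Nppb stood at 4.5, 4.51 and 3.07 FPKM, the oncostatin receptor Osmr at 2.34, 2.26 and 1.75 FPKM and Htr1f at 0, 0 and 0.17 FPKM. In the list of C-fibre touch neurons Gfra2, the neurturin co-receptor, stood at 46.4, 38.7 and 43.7 FPKM, Tafa4, a secreted peptide of these neurons, at 6.02, 2.75 and 4.54 FPKM and tyrosine hydroxylase (Th) at 0.77, 0.51 and 0.39 FPKM. In the list of cold-sensing neurons the cold channel Trpm8 stood at 8.14, 7.35 and 6.75 FPKM and the transcription factor Foxp2 at 0.69, 0.47 and 0.54 FPKM. The sum of the cold list, 15.4, 19.3 and 48.2 FPKM, was raised in sham replicate 3 by Penk, which central neurons also express. Sympathetic neuron genes summed to 8.17, 7.27 and 7.49 FPKM, of which the vesicular monoamine transporter Slc18a2 made up 79.2%, and Dbh, the enzyme that makes noradrenaline, was listed at 0, 0.2 and 0 FPKM.

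Channels that turn stimuli into current and those that carry the action potential varied little in sum, at 681, 718 and 609.9 FPKM for the transduction channels and 702, 718 and 659 FPKM for the sodium channel subunits. The acid-sensing channel Asic3 was the highest of the transduction channels, at 148, 161 and 124 FPKM, and the pacemaker channel Hcn2 stood at 84.6, 86.1 and 103 FPKM, Asic1 at 77.1, 83.7 and 67.3 FPKM and Tmem150c at 63.7, 61.2 and 48.4 FPKM. The irritant channel Trpa1 stood at 15.8, 18.6 and 12.1 FPKM and the mechanosensitive channel Piezo1 was lowest at 1.28, 1.66 and 1.25 FPKM. Sham replicate 3 was below both others for 12 of the 19 transduction genes and above both for 4. The background was 34.9% below and 41.2% above. Among the sodium channel genes the beta subunit Scn4b stood at 156, 151 and 137 FPKM and the pain channel Scn9a, Nav1.7, at 22.98, 23.2 and 16.98 FPKM. The embryonic subunit Scn3a was lowest at 0.66, 0.47 and 0.67 FPKM.

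Transcription factors that specify sensory neurons were present at moderate levels. Drgx, a homeobox factor of nociceptors, stood at 46.9, 45.4 and 34.1 FPKM, Isl1 at 31.04, 35.9 and 30.4 FPKM and Etv1, a factor of muscle afferents, at 31.6, 30.7 and 26.8 FPKM. Pou4f3, Shox2 and Pou4f2 had means of 17.5, 13.2 and 6.34 FPKM. Runx3, which marks proprioceptors, stood at 7.07, 6.34 and 4.19 FPKM and Runx1, which marks nociceptors, at 4.74, 6.67 and 5.66 FPKM. None of the 8 listed was above both others in sham replicate 3, and 6 were below both. Over all genes with a mean of at least 1 FPKM, 41.2% were above both and 34.9% below both.

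Myelin genes did not all go the same way in sham replicate 3. Of the 16 genes in the list of myelinating Schwann cells, 8 were above both other libraries there and 6 below both, shares near the 41.2% and 34.9% of all genes. Pmp22 (at 3323, 2803 and 2169 FPKM), the small membrane protein Ncmap (285, 222 and 172 FPKM), periaxin Prx (259, 209.8 and 163 FPKM), the claudin Cldn19 (87.9, 73.2 and 55.4 FPKM) and Drp2 (16.8, 13.9 and 10.9 FPKM), which Schwann cells use, were all lowest in sham replicate 3. Their ratios to the mean of the other libraries were 0.708, 0.68, 0.695, 0.687 and 0.712. These 5 genes were singled out after their values were seen.

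Some myelin genes that oligodendrocytes share with Schwann cells were higher there, and those given here were also singled out after their values were seen. Myelin basic protein (Mbp) stood at 1727, 1593 and 4992 FPKM, a ratio of 3.01, and its mean fell from 2770.5 to 1659.8 FPKM without sham replicate 3. The adhesion protein Mag stood at 23.4, 22.3 and 145 FPKM and the nucleotide phosphodiesterase Cnp at 144, 148 and 357 FPKM. These 3 were at least 2-fold above both other libraries in sham replicate 3, where oligodendrocyte genes were also high, and the part of those cells in these values was not tested. The 16 Schwann genes together summed to 15185, 13207 and 14701 FPKM (mean 14364 ± 1031).

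Non-myelinating Schwann cells and glia in general were represented by several abundant genes. The neurotrophin receptor Ngfr, which neurons also express, stood at 394, 404 and 328 FPKM, the sodium channel Scn7a at 98.8, 95.9 and 60.9 FPKM, the adhesion molecule L1cam at 85.8, 81.2 and 70 FPKM and Ncam1 at 32.4, 33.4 and 46.1 FPKM. The calcium-binding protein S100b stood at 1040.0, 1012 and 1202 FPKM. The glial transcription factor Sox10 stood at 77.5, 77.96 and 65.7 FPKM, and the neuregulin receptor Erbb3 was the lowest general glial gene at 14.9, 13.8 and 12.4 FPKM.

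Satellite glia genes were dominated by Apoe, which made up 88.8% of their sum of 5404, 5802 and 5557 FPKM (mean 5588 ± 201). Of the 10 members, 8 were above both other libraries in sham replicate 3, where 41.2% of all genes were, while Apoe was lowest there. Glutamine synthetase (Glul) stood at 168, 162 and 369 FPKM, connexin 43 (Gja1) at 12.5, 15.8 and 75.8 FPKM and the glutamate transporter Slc1a3 at 5.17, 3.14 and 25.6 FPKM. Those 3 were at least 2-fold above both other libraries in sham replicate 3. Astrocytes express them too, the astrocyte list was also high in that library, and the part of such cells in these values was not tested. The membrane protein Ttyh1 stood at 115, 125 and 144 FPKM and Fabp7, a fatty acid binding protein of satellite glia, at 56.9, 59 and 90.4 FPKM, while the potassium channel Kcnj10 was lowest at 6.07, 3.68 and 6.38 FPKM. Cdh19, a cadherin of peripheral glia, stood at 16.6, 12.8 and 9.94 FPKM.

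Fibroblast genes made up most of the vessel and connective tissue signal. They summed to 1488, 1153 and 1229.8 FPKM (mean 1290.5 ± 175). Apod, a lipocalin, led at 493, 456 and 698 FPKM and was highest in sham replicate 3. The collagens Col1a1, Col1a2 and Col3a1 stood at 240.5, 168 and 100.95 FPKM, at 207, 150.1 and 99.1 FPKM and at 187, 120.0 and 77.9 FPKM, and the proteoglycan decorin (Dcn) at 193, 124 and 117 FPKM. Each of these 4 was highest in sham replicate 1 and lowest in sham replicate 3. Matrix Gla protein (Mgp) stood at 98.1, 82.2 and 81.6 FPKM and Dpt, dermatopontin, was lowest at 1.26, 1.27 and 0.29 FPKM.

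The capsule and coverings gave lower levels. In the perineurium list the integrin Itgb4, which Schwann cells share, stood at 90.03, 81.8 and 63.5 FPKM, the glucose transporter Slc2a1 at 53.8, 46.3 and 83.8 FPKM and Cldn1 at 8.03, 6.19 and 4.78 FPKM. In the meninges list the prostaglandin synthase Ptgds made up 95.1% of the sum and stood at 80.2, 128 and 171 FPKM, while Aldh1a2, the retinoic acid synthesising enzyme, was at 0.4, 1.2 and 0.21 FPKM.

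Vessel genes were low and somewhat higher in sham replicate 3. The 17 endothelial genes summed to 177, 172 and 229 FPKM (mean 193 ± 31.8), and 12 of 17 were above both other libraries in sham replicate 3 against 41.2% of all genes. Claudin 5 (Cldn5), the tight junction protein of endothelium, stood at 47.4, 43.4 and 72.5 FPKM, the lipid transporter Mfsd2a at 27.2, 25 and 27.1 FPKM and the co-receptor Eng at 19.8, 18.7 and 19.5 FPKM. The thyroid hormone carrier Slco1c1, which marks vessels of the brain, stood at 2.8, 1.98 and 16.6 FPKM, and the VEGF receptor Flt1 was lowest at 1.23, 1.09 and 1.89 FPKM. In the mural list smooth muscle actin (Acta2) stood at 15.5, 19.6 and 32.4 FPKM, Tagln at 14.2, 15.7 and 32.6 FPKM and Rgs5 at 10.02, 11.8 and 21.9 FPKM, each highest in sham replicate 3. The receptor Pdgfrb was lowest there, at 10.9, 14.8 and 8.82 FPKM. The lists of spinal cord neurons and skeletal muscle moved the same way, and the part of such tissue in the vessel values was not tested.

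Genes of macrophages and of antigen presentation led the immune lists. The 20 macrophage genes summed to 189.9, 175 and 274 FPKM (mean 213 ± 53.4, or 182 without sham replicate 3). Of the 17 with a mean of at least 1 FPKM, 14 were above both others in sham replicate 3, against 41.2% of all such genes. Lysozyme (Lyz2) led at 91.5, 73.4 and 72 FPKM. The protease Ctss stood at 10.5, 10.2 and 45.2 FPKM, the complement gene C1qa at 10.3, 8.1 and 22.3 FPKM and the receptor Csf1r at 7.34, 7.54 and 14.1 FPKM, each highest in sham replicate 3. Microglia of the spinal cord share these genes, the oligodendrocyte and astrocyte lists were also high in that library, and the part of such tissue in these values was not tested. Adgre1, which encodes the F4/80 antigen, stood at 1.95, 2.86 and 3.21 FPKM and Ms4a7 was lowest at 0.3, 0.15 and 0.31 FPKM.

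Genes of MHC class II summed to 87.2, 104 and 116 FPKM. The invariant chain Cd74 stood at 41.9, 47.5 and 62.1 FPKM and RT1-Db1 at 9.37, 19.1 and 9.78 FPKM, the latter highest in sham replicate 2, and reads of the RT1 genes may be split between near-identical copies. Lymphocytes, granulocytes and mast cells were close to 0. The T and NK cell list held 18, 21 and 32 counts in all, the B cell list 6, 4 and 5, the neutrophil list 18, 23 and 44 and the mast cell list 2, 6 and 5. Ccl5, a chemokine of T and NK cells, stood at 1.66, 1.67 and 5.54 FPKM and S100a9 of neutrophils at 1.94, 2.92 and 8.44 FPKM. At this depth the defining T cell gene Cd3e, at 0, 0.22 and 0.23 FPKM, rests on a few reads.

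Red cell transcripts differed between all 3 libraries, with sums of 12244, 6686 and 16470.2 FPKM. Hbb stood at 3704, 1622 and 4739 FPKM and Hba-a2 at 2852, 1594 and 3431 FPKM, with Hba-a1 in the same order, lowest in sham replicate 2 and highest in sham replicate 3. Alas2, the haem synthesis enzyme of red cell precursors, followed that order at 24.6, 11.8 and 43.2 FPKM, as did the anion exchanger Slc4a1 at 2.53, 1.29 and 3.2 FPKM. The beta chain copies Hbb-bs and Hbb-b1 did not, at 196, 273 and 629.8 FPKM and at 146, 219 and 616 FPKM. Another beta-like gene, Hbbl1, stood at 419, 24.6 and 195 FPKM, highest in sham replicate 1. The haemoglobin genes are near-identical in part, so the split of reads between copies is uncertain.

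All 14 oligodendrocyte genes were above both other libraries in sham replicate 3, and 13 were at least 2-fold above both, against 3.75% of all genes. Of the 14, 7 reached a mean of 1 FPKM only through sham replicate 3, so that count is a description. The 7 with a mean of at least 1 FPKM over sham replicates 1 and 2 were all above both, where 39.7% of all genes with such a mean were. The summed counts gave a ratio to the other libraries of 14.5, 95% interval 13.6 to 15.4, an exact interval that covers counting error only. Cldn11, a tight junction protein of central myelin, stood at 6.17, 5.58 and 187 FPKM, Mobp, a central myelin protein, at 0.89, 0.85 and 151 FPKM and Mog, a protein of the outer myelin surface, at 2.42, 1.14 and 73.4 FPKM. Bcas1, a marker of newly myelinating cells, stood at 12.2, 12.6 and 66.1 FPKM and Gpr37 at 6.16, 9.07 and 38.4 FPKM, so these genes were also detected in the other libraries. The lineage factor Olig1 was listed at 0 in sham replicates 1 and 2 and at 59.7 FPKM, or 557 counts, in sham replicate 3. Its ratio was 379.8 against a floor of 3 counts over both other libraries, with an exact 95% lower limit of 307.9. Nkx6-2 was the lowest of the list, at 0.18, 0 and 7.95 FPKM.

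Astrocyte genes went the same way, and the rise of their sum was larger once Aldoc was set aside. Aldolase C (Aldoc), which neurons also express, made up 73.7% of the list's sum of 504, 485 and 1425 FPKM and stood at 482, 465 and 832 FPKM. The sum was 2.88-fold higher in sham replicate 3 with Aldoc and 28.5-fold higher without it. Glial fibrillary acidic protein (Gfap) stood at 6.72, 6.57 and 200.3 FPKM, angiotensinogen (Agt) at 4.63, 4.17 and 118 FPKM and the water channel Aqp4 at 0.58, 0.39 and 93.1 FPKM. Mlc1, a membrane protein of astrocyte endfeet, was listed at 0, 0 and 57.0 FPKM, at least 468-fold higher. All 11 astrocyte genes with a mean of at least 1 FPKM were above both other libraries there, against 41.2% of all such genes. Of the 11, 5 reached that mean only through sham replicate 3, so that count is a description. The 6 with such a mean over sham replicates 1 and 2 were all above both, against 39.7%. Slc4a4, the lowest of the list, had a mean under 1 FPKM and stood at 0.38, 0.82 and 0.77 FPKM.

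Genes of spinal cord neurons, which a ganglion does not contain, were close to 0 in sham replicates 1 and 2. The 10 genes summed to 2.56, 2.84 and 68.7 FPKM, or 57, 58 and 1055 counts. The vesicular GABA and glycine transporter Slc32a1 was listed at 0, 0 and 25.6 FPKM, at least 181-fold higher in sham replicate 3. The GABA-synthesising enzyme Gad1 stood at 0, 0.21 and 12.2 FPKM, the glycine transporter Slc6a5 at 0.16, 0.16 and 10.96 FPKM and choline acetyltransferase (Chat), an enzyme of motor neurons, at 0.16, 0.17 and 6.6 FPKM. Outside the lists, the vesicular acetylcholine transporter Slc18a3 stood at 0.08, 0.08 and 12.9 FPKM and the neuronal chloride exporter Slc12a5, which mature sensory neurons barely express, at 0.24, 0.2 and 29.9 FPKM.

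Skeletal muscle genes were also higher in sham replicate 3. The 22 with a mean of at least 1 FPKM were all above both other libraries in sham replicate 3, against 41.2% of all such genes. Of these, 20 were at least 2-fold above both, against 3.75% of all such genes. Of the 22, 13 reached that mean only through sham replicate 3, so both counts are descriptions. The 9 with such a mean over sham replicates 1 and 2 were all above both, against 39.7%. Skeletal actin (Acta1) stood at 6.98, 5.18 and 128 FPKM, the fast myosin light chains Myl1 and Myl11 at 2.01, 0 and 72.8 FPKM and at 1.78, 1.42 and 72.7 FPKM, fast troponin T (Tnnt3) at 1.76, 0.45 and 66.2 FPKM, creatine kinase (Ckm) at 1.94, 0.97 and 61.6 FPKM and fast troponin C (Tnnc2) at 0.99, 0 and 50.4 FPKM. The slow form Tnnc1 differed little, at 6.91, 5.44 and 7.58 FPKM. The list's summed counts of 237, 168 and 3690 gave a ratio of 18.6, 95% interval 16.8 to 20.6. The sums of sham replicates 1 and 2, 41.8 and 25.7 FPKM, also differed from each other. The ratio was 24.6 against sham replicate 2 alone and 15.2 against sham replicate 1 alone. The lowest mean was shared by the myosin Myh2, at 0, 0.14 and 0.53 FPKM, and Xirp2, at 0.13, 0.11 and 0.43 FPKM.

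Fat genes were low and highest in sham replicate 3, while cartilage and bone genes were lowest there in sum. Of the 5 cartilage and bone genes with a mean of at least 1 FPKM, 3 were below both other libraries there and 0 above both. Over all such genes the shares were 34.9% and 41.2%. Fat genes summed to 3.91, 2.12 and 10.8 FPKM, led by the protease Cfd at 2.19, 1.37 and 5.9 FPKM, and cartilage and bone genes to 59.1, 56.7 and 37.04 FPKM. Cartilage collagen Col2a1, which made up 72.5% of that sum, stood at 45.7, 40.9 and 24.1 FPKM and the matrix protein Comp at 7.36, 7.19 and 5.91 FPKM. The third of them was the collagen Col9a1, at 3.16, 2.76 and 0.42 FPKM. The proteoglycan Acan went the other way, at 0.03, 0.03 and 0.69 FPKM, as did the bone factor Sp7, at 0, 0.3 and 1.35 FPKM, and Chad, at 0, 0 and 0.83 FPKM. Acan, Sp7 and Chad had means under 1 FPKM and held 21, 8 and 6 counts in sham replicate 3. The bone proteins Bglap, at 1.48, 2.47 and 2.02 FPKM, and Ibsp, at 1.39, 3.03 and 1.67 FPKM, were highest in sham replicate 2. All lists of tissue outside the ganglion together held 0.124%, 0.117% and 0.545% of the summed FPKM, and their mean share was 0.262% with sham replicate 3 and 0.121% without it.

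**Figure D3:**
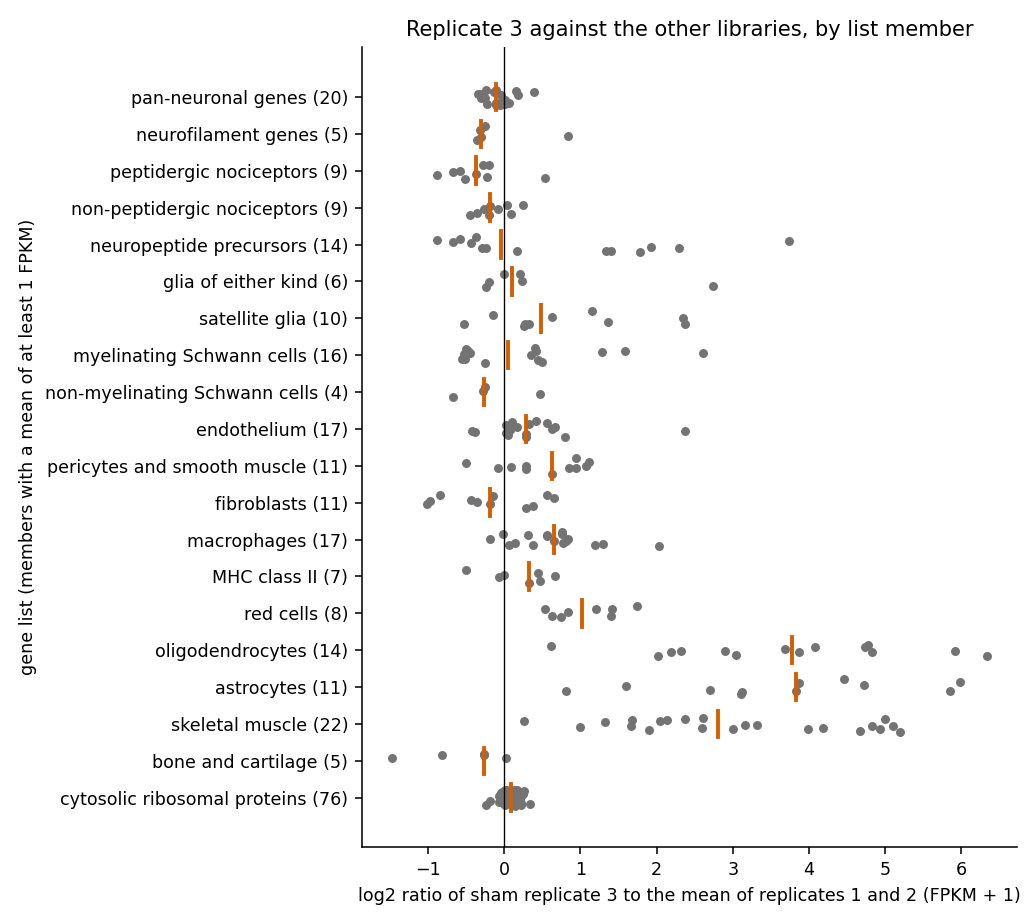
Log2 ratio of sham replicate 3 to the mean of sham replicates 1 and 2, with 1 FPKM added to each, for every list member with a mean of at least 1 FPKM; each grey point is a gene and the orange bar is the list's median. The medians of oligodendrocytes, astrocytes and skeletal muscle lie far above 0, the points of neuropeptides and myelinating Schwann cells fall on both sides of 0, and the 76 ribosomal protein genes lie close to 0.

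Genes far higher in 1 library than in the others were sought among those with at least 50 counts in it. In sham replicate 3, 102 of 8485 such genes were at least 5-fold above the higher of the other libraries, against 0 of 8240 in sham replicate 1 and 2 of 8238 in sham replicate 2. These are shares of 1.20%, 0% and 0.0243%. Of the 102, 10 were in the oligodendrocyte list, 9 in the astrocyte list, 4 in the spinal neuron list, 12 in the muscle list and 63 in no list. Among the 63 were the serine protease Klk6, listed at 0, 0 and 29.2 FPKM, the kinase Pnck at 0, 0.14 and 13.1 FPKM, the surface protein Igsf1 at 0.15, 0.25 and 15.04 FPKM and the hyaluronan-associated Itih3 at 0.89, 1.22 and 69.7 FPKM. A further 2 of the 63 were named after their values were seen. Transferrin (Tf), which oligodendrocytes make in quantity, stood at 15.8, 19.7 and 217 FPKM, and Hoxb13, a Hox gene of the tail end of the body axis, was listed at 0, 0 and 11.6 FPKM, or 67 counts in sham replicate 3.

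Such genes were few in the other libraries and were of other kinds. In sham replicate 2, Ndufa10l1 held 0, 378 and 0 counts, while Ndufa10, the mitochondrial subunit gene it closely copies, held 1284, 1265 and 1282 counts. How reads are split between such copies is uncertain. Ribosomal RNA was also higher there, with Rn18s at 1599, 3781 and 1443 counts, a ratio of 2.46, 95% interval 2.35 to 2.58, and Rn28s at 3017, 6560 and 2967 counts. The matrix protein tenascin C (Tnc) stood at 9.95, 18.4 and 7.1 FPKM, the actin-capping protein Capg at 8.35, 34.8 and 20.4 FPKM and the retinol saturase Retsat at 25.2, 84.1 and 50.5 FPKM. In sham replicate 1 the largest ratio belonged to Hbbl1, at 1109, 65 and 505 counts. The endothelial gene Apold1 stood at 7.79, 3.63 and 2.84 FPKM, the myelin transcription factor Egr2 at 20.3, 10.8 and 10.9 FPKM, the flow-responsive factor Klf2 at 12.4, 5.02 and 6.91 FPKM, and the muscle acetylcholine receptor subunits Chrna1 and Chrne at 22.5, 11.8 and 12.8 FPKM and at 19.3, 9.67 and 11.3 FPKM.

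**Figure D4:**
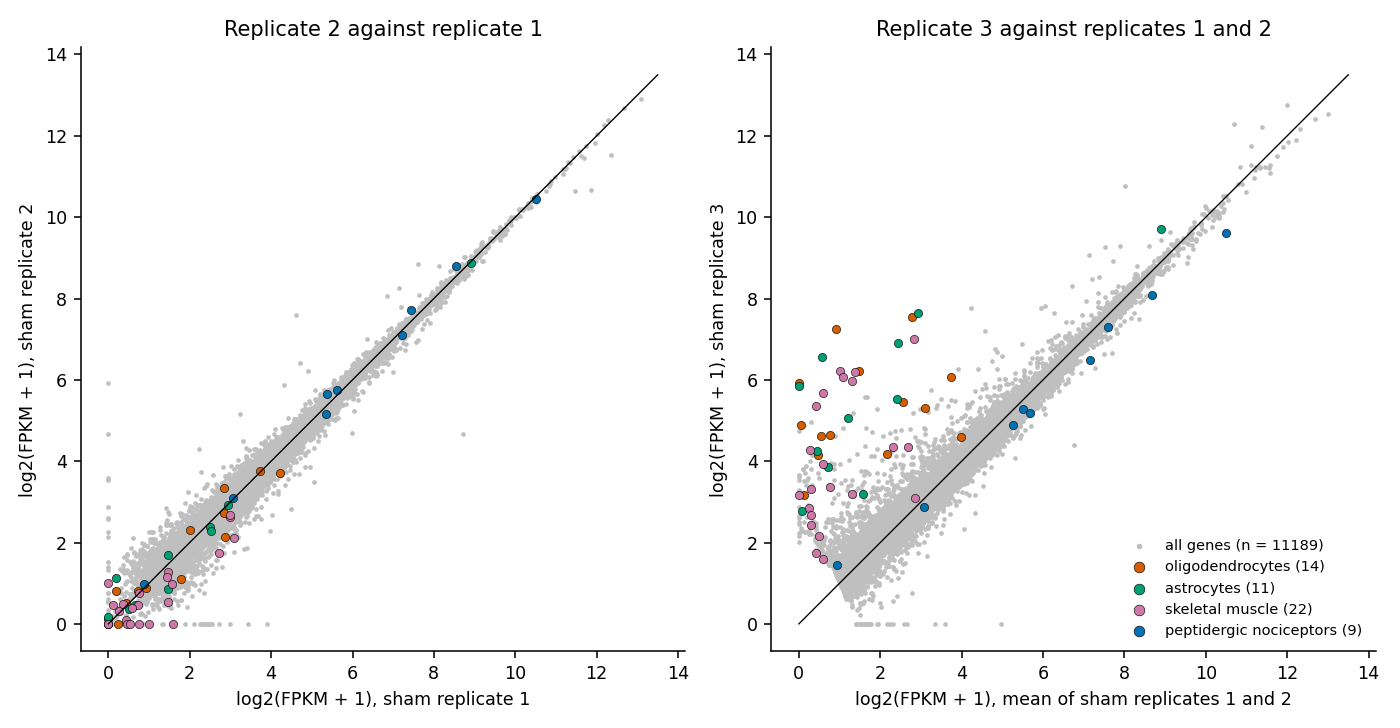
Level of each of the 11189 genes with a mean of at least 1 FPKM, as log2(FPKM + 1), in sham replicate 2 against sham replicate 1 (left) and in sham replicate 3 against the mean of the other libraries (right), with list members in colour and the line of equality. On the left the coloured genes follow the line, and on the right the oligodendrocyte, astrocyte and muscle genes lie above it and most peptidergic nociceptor genes below it.

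Sham replicates 1 and 2 resembled each other more than either resembled sham replicate 3. Across the 11189 genes, Pearson's r of log2(FPKM + 1) was 0.987 between sham replicates 1 and 2, 0.961 between 1 and 3 and 0.961 between 2 and 3. Spearman's rho was 0.987, 0.961 and 0.960 for the same pairs, where genes are not independent replicates and all pairs share the same gene lengths. More than 2-fold differences were seen in 126, 480 and 457 genes. The counts differed by more than sampling noise in each pair, with a chi-square per degree of freedom of 2.87, 12.9 and 13.8. The median chi-square of a single gene was 0.696, 1.39 and 1.41. These values do not tell libraries of separate animals from repeat libraries of the same RNA.

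The median coefficient of variation of a gene over the 3 libraries was 11.1%. It was 6.91% over sham replicates 1 and 2, 10.1% over 1 and 3 and 10.2% over 2 and 3. A pair gives a smaller median than 3 libraries of equal spread, so the pairs can be set beside each other and not beside 11.1%. The common biological coefficient of variation, the spread between libraries beyond counting error as estimated by edgeR, was 15.5%, and it was 6.53% without sham replicate 3 against 17.95% and 18.1% without sham replicate 1 or 2. The spread of low genes lay near counting error. For genes of 1 to 3 FPKM the median within the pair of sham replicates 1 and 2 was 19.7%, where counting alone gives 15.8%. For the 51 genes of at least 1000 FPKM it was 2.52%, where counting gives 0.648%, and 10.4% within the pair of sham replicates 2 and 3.

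**Figure D5:**
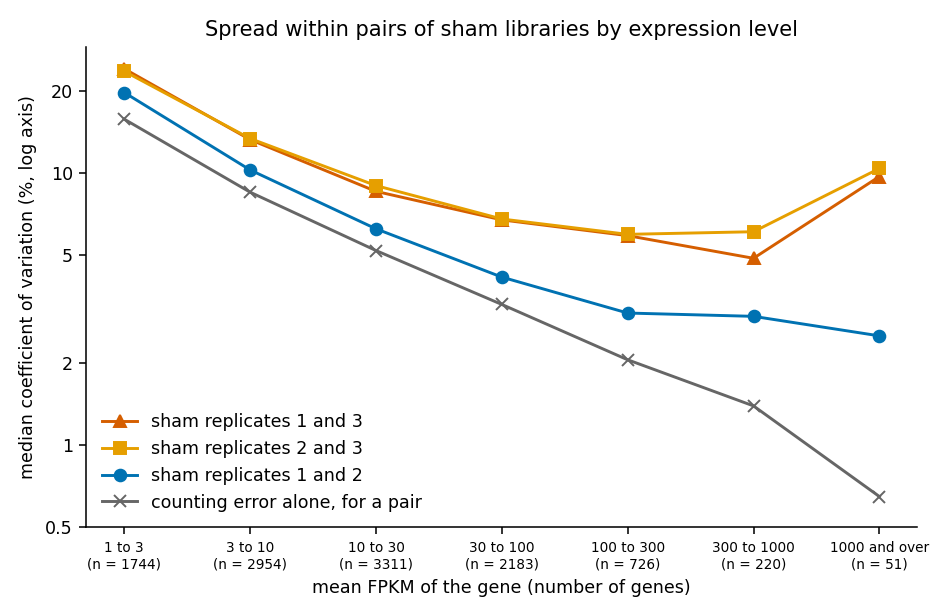
Median coefficient of variation (log axis, in percent) within each pair of sham libraries, by the gene's mean FPKM, beside the value that counting error alone would give for a pair. Both pairs with sham replicate 3 lie above the pair of sham replicates 1 and 2 at every level, and the distance to counting error is widest at 1000 FPKM and over.

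Housekeeping genes were close between libraries in sum. The 76 cytosolic ribosomal protein genes summed to 24208, 23215 and 24998 FPKM (mean 24140.5 ± 894). The 11 genes often used as references in PCR summed to 8774, 8481 and 8599 FPKM. The coefficient of variation of that sum was 1.71%, where moves of single members in opposite directions cancel. The median over the single members was 7.33%. For all genes of 300 to 1000 FPKM the median was 5.53%, and for those of at least 1000 FPKM it was 8.03%. Ppia stood at 2403, 2345 and 2295 FPKM, Actb at 1376, 1368 and 1309 FPKM and Hprt1 at 71.2, 66.4 and 76.4 FPKM, while the TATA-binding protein Tbp, the lowest, stood at 4.95, 7.08 and 3.38 FPKM. Gapdh, at 2327, 2125 and 2474 FPKM, and the glycolytic genes as a group, at 8851, 8407 and 9349 FPKM, were highest in sham replicate 3.

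Genes that respond to nerve injury or to handling of the tissue covered a wide range of levels on day 7 after sham surgery. The 10 injury genes summed to 301, 348 and 405 FPKM, of which Gap43, given above among the pan-neuronal genes, made up 54.0%. Gal and Npy, given above among the peptide genes, were highest in sham replicate 3, at ratios of 3.64 and 2.7. The injury transcription factor Atf3 stood at 5.87, 8.12 and 11.9 FPKM, Jun at 43.8, 51.5 and 46.7 FPKM, the growth arrest gene Gadd45a at 24.1, 30.8 and 25.9 FPKM, the macrophage growth factor Csf1 at 3.33, 5.09 and 7.8 FPKM and Sox11 at 1.67, 2.12 and 1.48 FPKM. Sprr1a, a cornified envelope gene induced in cut neurons, was listed at 0, 0 and 0.29 FPKM. Among the immediate early genes Nr4a1 led at 38.3, 40.7 and 24.5 FPKM, the phosphatase Dusp1 stood at 14.01, 15.8 and 11.9 FPKM, Junb at 9.46, 13.6 and 7.26 FPKM, Egr1 at 5.52, 9.26 and 8.09 FPKM and Fos at 3.01, 5.16 and 4.54 FPKM. Npas4 was listed at 0, 0.18 and 0 FPKM.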

How the data were processed

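Only the 3 sham libraries were used, grouped by title, so there is no comparison between groups and no p-value. Per the file headers, each deposited table gives a gene's length, its expected count and its FPKM. The authors' expected counts are estimates, of which 89.4% to 89.5% were whole (within 0.005). The FPKM values were deposited by the authors and fit an effective length about 36 bases below the listed length and a total 1.95% to 1.98% above the listed counts. Bowtie2 and CASAVA 1.4 are named in the submitters' processing notes. No source used here gives the quantifier, build, annotation, strand setting or sequencer. Of 13955 gene IDs, 13843 matched a symbol in a RefSeq table of GRCr8, 5 matched by accession and 107 were kept by ID. List members without a value (29, beside the mitochondrially encoded genes) are not analysed here.

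Levels are FPKM as deposited, with means ± SD over 3 libraries. Rounded counts went into edgeR 4.0.16 (TMM, R 4.3.3) for the biological coefficient of variation, with DESeq2 1.42.0 as an alternative, and tables were made with pandas 2.3.3 and scipy 1.17.1. Scripts were tested on simulated data. Intervals are exact at 95%, cover counting error only, and reads carry no molecular identifiers. A gene at 0 in both other libraries was set against a floor of 3 counts over them. Genes were named by rule: the 30 with the highest mean FPKM, up to 6 highest members and the lowest of each list, the 15 most particular to each library (at least 50 counts), and the 15 largest and smallest coefficients of variation (at least 10 FPKM and 100 counts), with exceptions stated. Some genes that this rule names are not reported here. The 42 gene lists and the libraries were chosen with earlier results of these data known.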

Additional observations from a re-analysis of the deposited data

How the results depend on the processing

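No paired analysis was possible because only sham libraries were used and no groups were compared. Raising the minimum to 10 FPKM lowered the number of expressed genes from 11189 to 6491. In CPM, counts scaled to library size, the top 100 genes held 24.8% in place of 27.7%, the neuron lists 8.09% in place of 7.23%, glia 3.60% in place of 4.25%, vessel and connective tissue 0.479% in place of 0.347%, immune 0.0431% in place of 0.0617% and blood 0.655% in place of 2.20%, since FPKM weights short genes more. Without their highest member these shares were 6.08%, 2.86%, 0.245%, 0.0470% and 1.26%, and the neuron share without genes of other lists was 6.12%. The median coefficient of variation, 11.1%, was 14.1% with no minimum and 8.12% at 10 FPKM. With 1 library left out it ran from 6.91% to 10.2%, values of pairs that are smaller by construction than a value over 3 libraries. The biological coefficient of variation ran from 6.53% to 18.1%. The mean correlation went from 0.970 to 0.949 with a pseudocount of 0.1. The ratio of sham replicate 3 for oligodendrocytes was 14.2, and 12.04 without its highest member. For astrocytes it was 2.88, with 3.73 in CPM and 28.5 without Aldoc. For skeletal muscle it was 18.8, and 15.2 to 24.6 with 1 library left out. Of the 30 most abundant genes, 21 were also in the top 30 by CPM, 30 by TPM, and 28 to 30 with 1 library left out. Of 519 alternatives for single lists and genes, 112 differed from the main value by at least 1 SD. The 112 include unchanged ranks of Actb, at 30 by TPM and without sham replicate 1 or 2, because the SD of its rank was 0. Without genes of the outside-tissue lists, an alternative chosen after seeing the data, the median coefficient of variation was 11.0%. TMM factors and DESeq2 size factors moved none of the shares of the lists, the median coefficient of variation or these 3 ratios beyond 1 SD or the counting interval. At 4310643 to 4412391 counts a library, genes under 1 FPKM are not resolved.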

Other observations

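Some genes were nearly constant over the sham libraries. Among the 5745 genes with a mean of at least 10 FPKM and 100 counts, the smallest coefficients of variation belonged to Lrrn3, a neuronal leucine-rich repeat protein, at 16.06, 16.09 and 16.07 FPKM, the prefoldin subunit Pfdn5 at 99.01, 98.83 and 98.8 FPKM, the glycosyltransferase Pomgnt1 at 33.8, 33.86 and 33.93 FPKM and the lysosomal adaptor Lamtor1 at 109.68, 109.26 and 109.33 FPKM. The translation factor Eef1a2, which replaces Eef1a1 in neurons and muscle, stood at 706, 708 and 701 FPKM. These spreads, of 0.0950% for Lrrn3 and 0.459% for Eef1a2, are below the counting errors of 6.77% and 1.26%. The largest coefficients belonged to genes listed in 1 library alone, Olig1 and Mlc1 in sham replicate 3 and Ndufa10l1 in sham replicate 2, each at 173%, the highest value that 3 libraries allow.

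Noncoding genes made up little of the deposited tables. Protein-coding genes (13735) held 99.2%, 99.1% and 99.2% of the summed FPKM, 23 long noncoding RNA genes 0.0297%, 0.0323% and 0.0475%, and 5 ribosomal RNA genes 0.0676%, 0.182% and 0.0645%. The 42 microRNA genes listed had at most 18 counts in any library.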
